A study of Arabidopsis thaliana with 48 samples.

Results

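Total RNA of gcn2 seedlings was compared with total RNA of wild-type (WT) seedlings of Arabidopsis thaliana that had received no herbicide. The arrays were chosen by their labels as mock-treated total RNA, which gave 3 gcn2 arrays and 3 WT arrays, 6 of the 48 Affymetrix ATH1 arrays of the study. The study as a whole set gcn2 against WT in the response to a herbicide, chlorsulfuron, in total RNA and in polysome fractions. The mock comparison asks how far the genotypes differed after a mock treatment without herbicide.

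The gcn2 mock group and the WT mock group shared everything that the labels give except the genotype. Both were Landsberg erecta seedlings of 10 days, grown under 16 h of light at 22 °C on agar (0.8%) with sucrose (1%) in GM medium. At 2 h after the lights came on they were put under liquid for 1 min, and the mock liquid held the solvent (acetone in water) without the herbicide. They were harvested 2 h later, and RNA was taken from the aerial part. The gcn2 allele, the number of mutant lines and their crossing history are not known from the labels. Effects of the gcn2 mutation and of any other difference between the lines therefore cannot be told apart.

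GCN2 is a protein kinase that binds uncharged tRNA, which builds up when amino acids run short. It phosphorylates the alpha subunit of the translation initiation factor eIF2, which slows the start of translation. In plants GCN2 is the only known kinase of eIF2α, and it also responds to herbicides that block amino acid synthesis, to wounding and to other stresses.

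GCN2 itself (AT3G59410) and CSR1, the herbicide's target enzyme, were paired with no probe set in the annotation given, so the genotype could not be checked on the mutated gene. The leaf markers RCA (Rubisco activase) and PRK (phosphoribulokinase) were bright, with 13.17 and 11.97 log2 units in gcn2 and 13.07 and 12.09 in WT. Among 5 measured root markers, the root hair expansin gene EXPA7 was dim (3.08 in gcn2 and 3.14 in WT), and PYK10, a beta-glucosidase of roots and hypocotyls, was at 10.63 and 10.71. The other 3 root markers lay between 2.96 and 3.44, and 0 of the leaf and root markers passed the test. The 6 arrays had medians between 6.22 and 6.23 and correlated at 0.991 to 0.996 within a genotype and at 0.987 to 0.995 between genotypes.

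Few RNAs differed between gcn2 and WT without herbicide. Of 22746 probe sets tested, 31 (0.136%) passed an adjusted p of 0.05 by limma, 16 higher and 15 lower in gcn2, and 26 of them had 1 named gene (14 higher, 12 lower). With the replicate number as a block, 163 passed (0.717%), 76 higher and 87 lower, and these include all 31. Of the 31, 23 were at or beyond 1 log2 unit and 9 at or beyond 2. With so few arrays small differences could not pass, so the choice by adjusted p largely fixes these sizes. Over all probe sets the median absolute difference was 0.11, and 2.01% exceeded 0.5, and 1646 probe sets (7.24%) had an unadjusted p under 0.05. In bulk tissue, more cells of a type and more RNA per cell cannot be told apart.

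**Figure D1:**
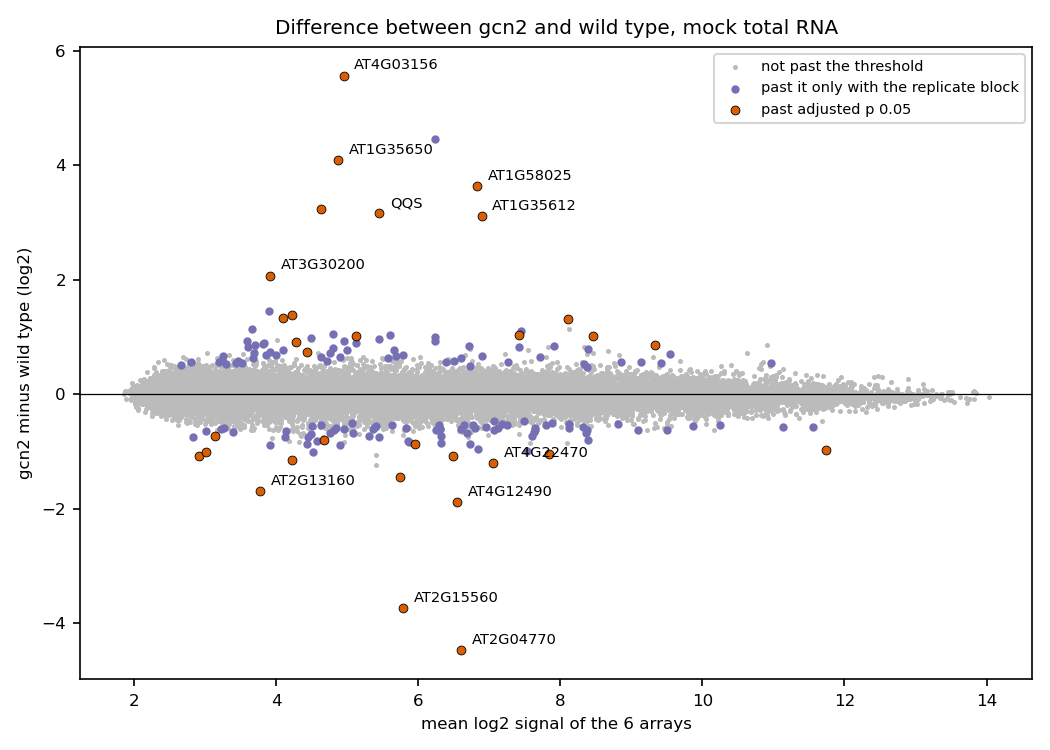
Difference between gcn2 and WT (log2, vertical axis) against the mean log2 signal of the 6 mock total RNA arrays, for all 22746 probe sets. The 31 probe sets past the threshold (orange) include 9 at or beyond 2 log2 units, and those that passed only with the replicate block (purple) mostly lie closer to 0.

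Among the genes higher in gcn2, QQS was the clearest with a known role. QQS is an orphan gene, found in Arabidopsis only, whose level affects how much starch the leaf stores. Its signal was 6.86, 6.77 and 7.48 in gcn2 replicates 1, 2 and 3, against 4.03, 3.87 and 3.72 in WT replicates. Every gcn2 array lay above every WT array by more than 2 log2 units, and the difference was 3.16 ± 0.20 (SE, n = 3 each; adjusted p = 3.16e-07), or 8.94-fold.

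The largest rise was that of AT4G03156, with 8.00, 7.48 and 7.72 in gcn2, against 2.16, 2.18 and 2.16 in WT (5.56 ± 0.15, adjusted p = 2.44e-12). All 3 WT values were below the lower quartile of the arrays (3.48 to 3.62), so the RNA was bright in gcn2 and near the bottom of the scale in WT, and the size of the difference is uncertain. AT1G58025 had 8.12, 9.02 and 8.82 in gcn2, against 5.22, 5.50 and 4.33 in WT (3.63 ± 0.32, adjusted p = 1.49e-05). Here both genotypes were above that quartile, and the gap between them was wider than the spread within either. AT3G30200 stood at 4.94, 4.96 and 4.96 in gcn2, against 2.77, 2.93 and 2.94 in WT, where it was dim (2.07 ± 0.13, adjusted p = 3.16e-07). An unnamed probe set, 256166_at, had 6.17, 6.25 and 6.34 in gcn2, against 2.85, 2.93 and 3.27 in WT.

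Further rises were seen at named genes. SWEET10 belongs to the SWEET family of sugar transporters and had 5.62, 5.50 and 5.81 in gcn2, against 4.54, 4.63 and 4.69 in WT (1.02 ± 0.14, adjusted p = 0.0035). AT1G12000, a subunit of the pyrophosphate-dependent phosphofructokinase of glycolysis, had 9.60, 9.94 and 9.75 in gcn2, against 9.04, 8.96 and 8.68 in WT (0.87 ± 0.14, adjusted p = 0.012). 2A6, of the family of 2-oxoglutarate-dependent oxygenases, had 8.24, 7.51 and 8.06 in gcn2, against 6.97, 6.91 and 6.82 in WT (1.04 ± 0.18, adjusted p = 0.027). In all 3 genes the arrays of the genotypes did not overlap. AT1G79170 (1.32 ± 0.21) and AT1G12020 (1.01 ± 0.17) rose as well, as did AT3G10930 (0.73 ± 0.13, adjusted p = 0.043), which encodes a small peptide of the IDA-like family.

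The SWEET family was looked at after SWEET10 had been seen, and 15 of its genes were measured. SWEET10 was the only one to pass without the block. SAG29, also known as SWEET15, had 6.06, 5.83 and 6.17 in gcn2, against 5.62, 5.21 and 5.21 in WT (0.67 ± 0.17, adjusted p = 0.24 without and 0.030 with the block). SWEET2 had 5.72, 5.90 and 6.04 in gcn2, against 4.87, 5.42 and 5.47 in WT (0.63 ± 0.17, adjusted p = 0.27 without and 0.024 with the block). In 5 of the 15 genes, these 3 and SWEET8 and SWEET13, every gcn2 array lay above every WT array, against 5.04% of all probe sets. The 5 include SWEET10, which led to the look at the family, so the share is no test of it. SWEET8 was dim (2.49 in gcn2 and 2.31 in WT). For SWEET13 the lowest gcn2 array (5.52) barely cleared the highest WT array (5.51). The 12 besides SWEET10, SAG29 and SWEET2 had differences between −0.13 (SWEET11) and 0.35 (SWEET6). SWEET13, the next measured gene on the chromosome after SWEET10, had 0.28 ± 0.22 (adjusted p = 0.89).

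Among the genes lower in gcn2, AT2G15560 had 3.69, 3.35 and 4.75 in gcn2, against 7.33, 7.62 and 8.03 in WT (−3.73 ± 0.28, adjusted p = 2.66e-06), 13.3-fold lower. AT2G13430 had 4.72, 4.94 and 5.40 in gcn2, against 6.62, 6.44 and 6.33 in WT (−1.44 ± 0.18, adjusted p = 0.0011). AT2G36885 had 5.70, 6.03 and 6.13 in gcn2, against 6.77, 7.09 and 7.21 in WT (−1.07 ± 0.15, adjusted p = 0.0035). The 3 loci lie on chromosome 2, and their arrays did not overlap between genotypes.

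Hybrid proline-rich proteins with a lipid-transfer domain were the only list examined with more than 1 member past the threshold. These proteins sit in the cell wall or at membranes, and several act in defence priming and in cold or salt responses. AT4G22470 had 6.54, 6.22 and 6.59 in gcn2, against 7.69, 7.59 and 7.70 in WT (−1.21 ± 0.15, adjusted p = 0.0012). AT4G12490, known as AZI3, had 6.04, 6.25 and 4.55 in gcn2, against 7.33, 7.24 and 7.91 in WT (−1.88 ± 0.34, adjusted p = 0.041). Replicate 3 was the lowest gcn2 array and the highest WT array for this gene, and its call was kept in 3 of the 6 fits that leave out 1 array.

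Of 22 listed genes of this group, 10 were measured, 2 fell and 0 rose, with 0.136% of all probe sets past the threshold. At an unadjusted p under 0.05 there were 4, against 7.24% of all probe sets, and they include AT1G62510, which was higher in gcn2. The list median was −0.10 against −0.002 for all probe sets. The lists were chosen with earlier results of these data known, so these counts are no independent test of the family. AT4G12500, the neighbour of AT4G12490, had −0.62 ± 0.18 (adjusted p = 0.33 by limma) from a dim signal of 2.86 in gcn2 and 3.48 in WT. AT1G62510 went the other way, with 0.59 ± 0.19 (adjusted p = 0.43 by limma).

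Further falls were seen. AT3G49160, of the pyruvate kinase family, fell by 0.80 (4.22, 4.21 and 4.37 in gcn2, against 4.98, 4.83 and 5.39 in WT; adjusted p = 0.048). AT3G16670, of a family of pollen allergen and extensin-like proteins, fell by 0.86 (adjusted p = 0.0496), and AT1G35183 fell by 0.72 (adjusted p = 0.046) to a dim level in gcn2. The brightest probe set that passed was unnamed: 251109_at had 11.06, 11.32 and 11.37 in gcn2, against 12.22, 12.34 and 12.12 in WT (−0.98 ± 0.12, adjusted p = 0.0012).

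**Figure D2:**
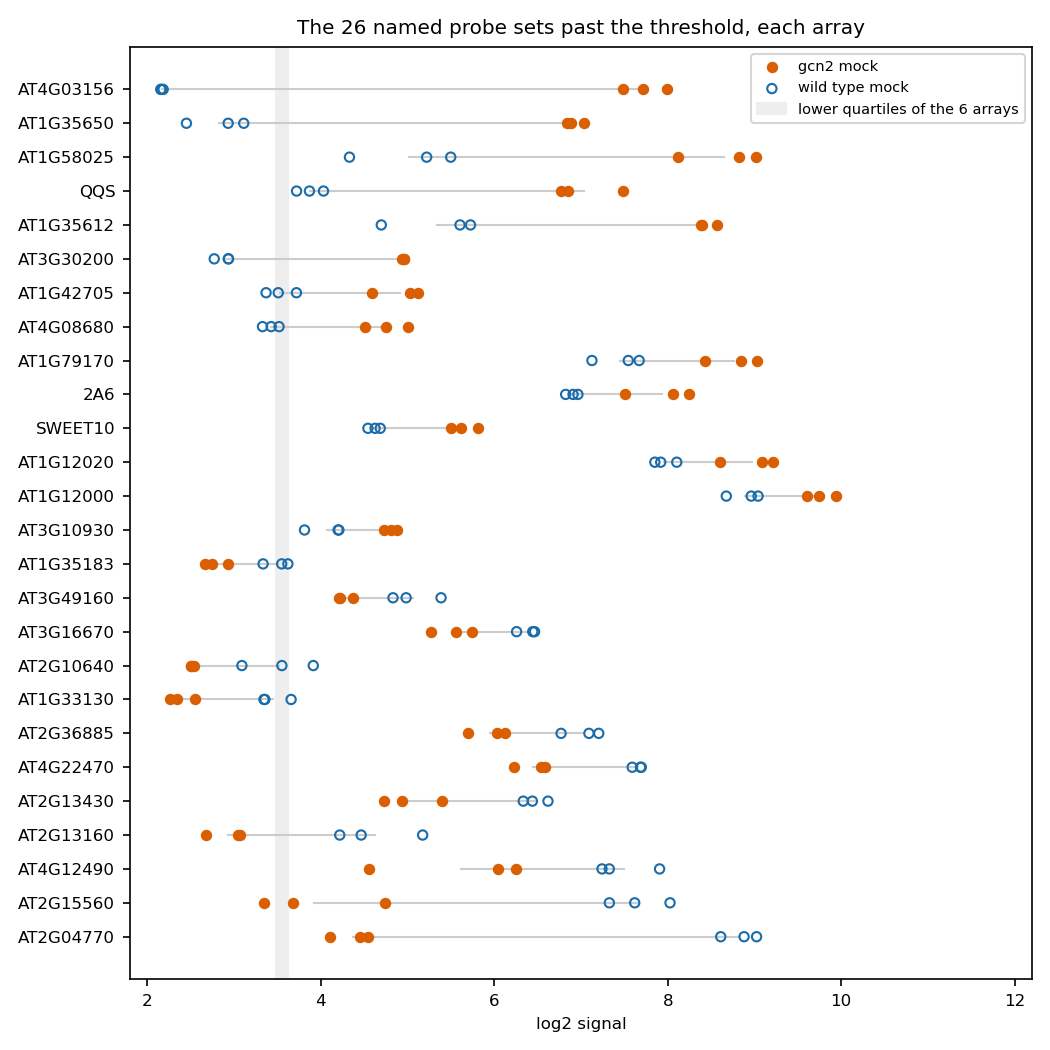
Log2 signal of the 26 named genes past the threshold in each gcn2 mock array (filled) and each WT mock array (open), with grey lines joining the group means and a grey band over the lower quartiles of the arrays (3.48 to 3.62). The genotypes do not overlap in any of the 26 genes, and AT4G03156, AT1G35650, AT3G30200 and AT4G08680 have WT means below it.

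The arrays of the genotypes did not overlap for all 31 probe sets, which the choice by adjusted p largely fixes. Over all probe sets, 5.04% had every gcn2 array above every WT array and 6.14% had every gcn2 array below. The WT mean lay below the lower quartile for 6 of the 31 and the gcn2 mean for 4. Leaving out each array in turn kept the call in all 6 fits for 18 of the 31, among them QQS, SWEET10, AT4G22470, AT2G36885 and AT2G13430. AT3G10930, AT1G35183 and AT3G16670 passed in 0 of the 6 fits, and 2A6, AT1G12020 and AT3G49160 in 1.

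Pseudogenes made up 8 of the 26 named genes (30.8%) but 6.85% of the named probe sets measured, a difference that was described and not tested. Most of them are remnants of transposons or decayed gene copies. AT1G35650, AT1G35612, AT1G42705 and AT4G08680 were higher in gcn2, and AT2G04770, AT2G13160, AT1G33130 and AT2G10640 were lower. AT1G35612 had 8.39, 8.39 and 8.57 in gcn2, against 5.61, 4.70 and 5.73 in WT (3.11 ± 0.26, adjusted p = 7.66e-06). AT2G04770 had 4.54, 4.11 and 4.45 in gcn2, against 8.61, 9.02 and 8.88 in WT (−4.47 ± 0.17, adjusted p = 1.97e-10), the largest fall of all. AT1G35650 had 6.88, 7.04 and 6.84 in gcn2, against 3.11, 2.93 and 2.45 in WT (4.09 ± 0.15, adjusted p = 1.92e-10).

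Of all pseudogene probe sets measured, 83.1% were dim in both genotypes (under the lower quartile), and a large difference can arise only where 1 genotype is above it. For 7 of the 8, AT1G35612 being the exception, the probe set is of a type that can bind several related transcripts, so the locus is uncertain. Such probe sets were 7 of the 26 named ones past the threshold and 2.09% of all named ones. They were 20.5% of the pseudogene probe sets measured and 0.70% of the protein-coding ones. The remaining 5 differences ranged from −1.69 (AT2G13160) to 1.38 (AT1G42705).

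The named genes past the threshold lay on every nuclear chromosome. Chromosome 1 held 10 of the 26, 8 higher and 2 lower, and chromosome 2 held 6, all lower. Chromosomes 3, 4 and 5 held 5, 4 and 1. These chromosomes held 25.7%, 16.4%, 20.4%, 14.6% and 22.4% of the named probe sets, in the order 1 to 5.

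The nearest measured genes on either side of those past the threshold mostly had differences near 0. They lay up to 12 annotated genes away. The nearest measured neighbours on both sides numbered 51, of which 0 passed by limma without and 1 passed with the block (5 had an unadjusted p under 0.05), and their median absolute difference was 0.092. QQS lay between AT3G30710 (−0.02) and AT3G30730 (−0.36), 12 and 4 annotated genes away. AT2G15560 lay between AT2G15550 (−0.09) and AT2G15580 (0.09), and AT4G03156 between NET3B (0.22) and AT4G03160 (0.07). The neighbours of QQS and AT4G03156 were dim in both genotypes, between 2.56 and 3.21. A difference near 0 from such signals cannot show that a neighbour was unchanged. The widest neighbour differences were those of AT1G12030 (1.05) and AT4G12500 (−0.62), each in the direction of its neighbour, AT1G12020 and AT4G12490. AT1G12030 lay close to AT1G12000 (0.87) and AT1G12020 (1.01) on chromosome 1, while AT1G12010, also measured there, was at −0.13. The next gene measured beyond AT1G12030 was AT1G12070 (−0.08), and genes between these 2 were not measured.

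AT1G12030 had 5.75, 5.63 and 4.60 in gcn2, against 4.48, 4.18 and 4.16 in WT (1.05 ± 0.26, adjusted p = 0.22 without and 0.025 with the block). All gcn2 arrays lay above all WT arrays, and gcn2 replicate 3 was closest to them. AT1G12010, which lies between AT1G12000 and AT1G12020, was dim at 2.80 in gcn2 and 2.93 in WT. The pseudogenes AT1G35612 and AT1G35650 were 11 annotated genes apart, and the 4 genes measured between them had differences from −0.13 (AT1G35640) to 0.20 (AT1G35617). All 4 were dim in both genotypes, between 2.28 and 2.83, so these differences cannot show that the genes were unchanged.

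The region of the mutated gene had no such group of rises. Of the 20 annotated genes on either side of GCN2, 16 were measured with 17 probe sets, 0 passed by limma with or without the block and 1 had an unadjusted p under 0.05. Their differences ran from −0.40 (AT3G59370) to 0.29 (AT3G59470), with a median of 0.06. The nearest measured neighbours were AT3G59390 (−0.08 ± 0.15) and CR4 (0.03 ± 0.16).

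**Figure D3:**
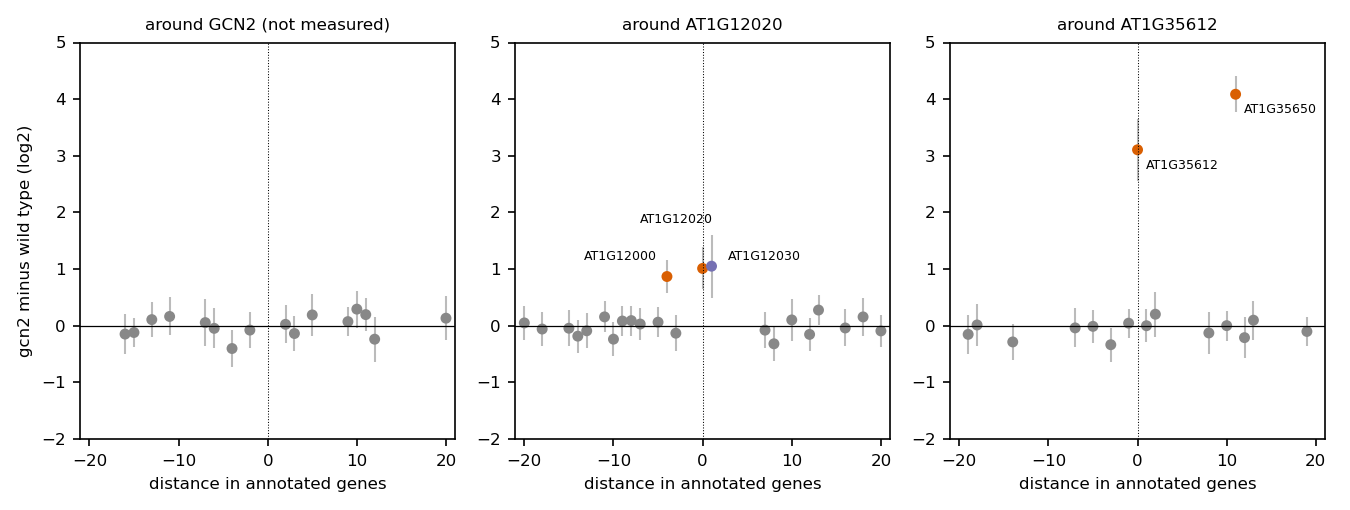
Difference between gcn2 and WT (log2) of measured genes by their distance in annotated genes from GCN2, AT1G12020 and AT1G35612, with 95% confidence intervals. Genes around GCN2 lie between −0.40 and 0.29, and beside AT1G12020 and AT1G35612 the genes past the threshold (orange; purple with the block only) stand among neighbours near 0. The genes measured between AT1G35612 and AT1G35650, and AT1G12010, were dim in both genotypes.

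Genes of the GCN2 pathway itself did not pass. Of 23 listed genes for GCN2, its activator and the factors eIF2, eIF2B and eIF5, 13 were measured, 0 rose and 0 fell by limma, 0 passed with the block and 0 had an unadjusted p under 0.05. ILA, the plant GCN1, which activates GCN2, had 7.56 in gcn2 and 7.53 in WT (0.02 ± 0.17). AT2G40290, a gene for the alpha subunit of eIF2, the substrate of GCN2, had 9.66 in gcn2 and 9.79 in WT (−0.13 ± 0.12). The pathway's differences ran from −0.32 (AT2G18720) to 0.32 (AT3G07920), both from dim signals. The 95% confidence intervals of the list reached from −0.69 to 0.65 at the widest, and for AT2G40290 from −0.38 to 0.13.

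Amino acid metabolism gave no calls by limma either, and 0 of the probe sets in the 4 lists named next had an unadjusted p under 0.05. In branched-chain amino acid synthesis 4 of 18 listed genes were measured and 0 passed, with AT2G31810, a regulatory subunit of acetolactate synthase, at −0.02 ± 0.14 and AT3G58610, of ketol-acid reductoisomerase, at −0.26 ± 0.13. In branched-chain amino acid breakdown 6 of 12 were measured and 0 passed, from −0.39 ± 0.18 (AT5G09300, of the keto acid dehydrogenase) to 0.08 ± 0.12 (IVD, isovaleryl-CoA dehydrogenase). In histidine and tryptophan synthesis 4 of 19 were measured and 0 passed, from −0.13 (AT-HF) to 0.08 (IGPD). Of the bZIP transcription factor genes whose translation is repressed by sucrose, 2 of 5 were measured and 0 passed (BZIP53 0.13, bZIP44 −0.14).

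The starch list held 34 genes, of which 5 were measured, 1 rose and 0 fell. QQS was that gene. The starch enzymes themselves had differences near 0, with 0.10 for APL3 (a subunit of ADP-glucose pyrophosphorylase), −0.16 for SBE2.2 (branching enzyme), −0.18 for DPE1 (disproportionating enzyme) and −0.19 for PWD (phosphoglucan water dikinase). Of 36 genes of DNA methylation and silencing, 2 were measured and 0 passed: UBP26, a histone deubiquitinase, was at 0.00 and the 3 probe sets of DME, a DNA demethylase, ran from −0.24 to −0.07.

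The other lists gave 2 calls with the block. Of 24 salicylate and defence genes, 5 were measured, 0 passed without the block and ECS1 passed with it, while WRKY53, SAG101, PDF1.2 and GRX480 lay between −0.11 and −0.01. Of 16 clock genes GI alone was measured, a regulator of the clock and of flowering, with 7.82, 7.94 and 7.81 in gcn2, against 8.48, 8.35 and 8.31 in WT (−0.52 ± 0.13, adjusted p = 0.22 without and 0.046 with the block). Its arrays did not overlap between genotypes. In the touch and hypoxia lists 3 of 11 and 3 of 14 genes were measured and 0 passed by limma, from −0.29 (PDC2, pyruvate decarboxylase, the 1 gene with an unadjusted p under 0.05) to 0.14 (STZ, a zinc finger factor). The 69 plastid-encoded genes measured had a median of −0.01, with 0 past the threshold and 1 with an unadjusted p under 0.05.

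Beyond the 31, the block brought 132 further probe sets past the threshold, 65 of them with 1 gene (27 higher, 38 lower). Their absolute differences ran from 0.47 to 1.14 with a median of 0.63, and the genotypes did not overlap for 57 of the 65, against 5.04% of all probe sets higher and 6.14% lower, which the choice by adjusted p again largely fixes. Among the named rises, AT3G28270 had 8.17, 7.95 and 7.40 in gcn2, against 7.31, 7.04 and 6.66 in WT (0.83 ± 0.23, adjusted p = 0.32 without and 0.00069 with the block). Within each replicate number the gap was nearly the same, from 0.73 to 0.91, while the level differed between numbers in both genotypes.

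The other named genes are given by what they encode. AT5G18840, of a sugar transporter family, had a difference of 0.80, AT5G44050, a MATE efflux transporter, 0.85, and AT1G57590, a pectin acetylesterase, 0.77. AT2G47020, a peptide chain release factor, had 0.89, and the pseudogenes AT2G06890, AT1G64410 and AT5G44880 had 1.14, 0.90 and 0.90. OCT1, an organic cation and carnitine transporter, had 4.28, 3.99 and 3.77 in gcn2, against 5.48, 4.68 and 4.87 in WT. Also lower in gcn2 were AT1G31690 (−0.96), a copper amine oxidase, AT5G59170 (−0.87), an extensin-like protein, and AT1G29090 (−0.74), a cysteine protease. AT5G53240 (−0.81) and the pseudogene AT3G30396 (−0.88) were lower too.

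The chitinase family genes AT2G43590 and AT2G43620 had −0.98 and −0.79, with 7.48, 7.13 and 6.49 in gcn2, against 8.10, 7.95 and 8.00 in WT for AT2G43590. AT1G73620, of the thaumatin family, had −0.83. ICL, isocitrate lyase of the glyoxylate cycle that turns stored fat into sugar, had 6.60, 6.32 and 5.96 in gcn2, against 7.14, 7.30 and 7.02 in WT (−0.86 ± 0.26, adjusted p = 0.37 without and 0.030 with the block). Each of these 4 genes was lower in every gcn2 array than in any WT array.

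**Figure D4:**
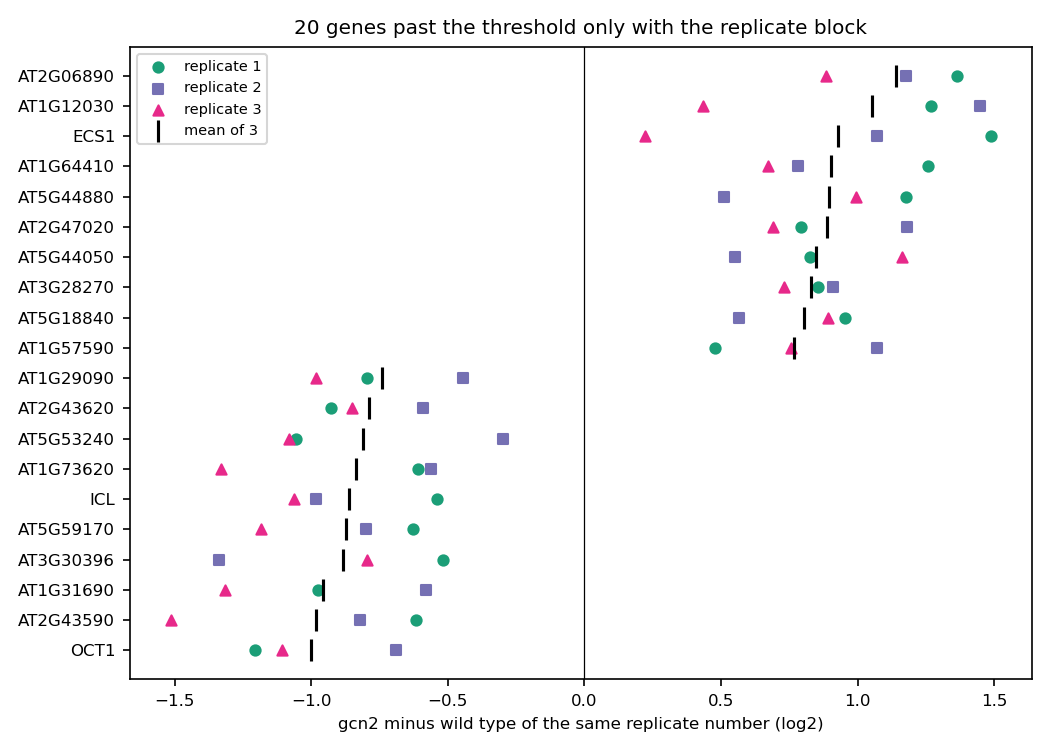
Difference between gcn2 and WT of the same replicate number (log2), for the 20 genes named among those past the threshold only with the replicate block, with the mean of 3 as a black bar. Every pair lies on the same side of 0, from −0.30 (AT5G53240, replicate 2) to −1.51 (AT2G43590, replicate 3) for falls and from 0.22 (ECS1, replicate 3) to 1.49 (ECS1, replicate 1) for rises. The choice of genes by the fit with the block largely fixes this.

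The count depended on which array was left out. Leaving out gcn2 replicate 3 gave 43 probe sets, 29 higher and 14 lower, of which 26 were among the 31 and 17 were gained. Of the 17, 15 were higher in gcn2, and in all 15 replicate 3 lay below replicates 1 and 2, which this choice of probe sets largely fixes. Over all probe sets, the SD from the group mean was 0.195 in gcn2 replicate 3 and 0.194 in gcn2 replicate 1. The number higher fell to 9 without WT replicate 3 and to 10 without WT replicate 2, against 16 with all arrays.

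The widest gap was at the unnamed probe set 254098_at, with 10.35, 10.44 and 4.64 in gcn2, against 3.99, 3.79 and 4.25 in WT. Replicates 1 and 2 of gcn2 were bright and replicate 3 lay near WT, so the difference of 4.47 ± 0.99 did not pass (adjusted p = 0.13) without the block and did with it (0.038). BHLH101, a transcription factor of the iron deficiency response, had 9.31, 9.20 and 7.56 in gcn2, against 7.51, 7.54 and 7.60 in WT (1.14 ± 0.39, adjusted p = 0.47 without and 0.094 with the block). ECS1 had 4.61, 4.11 and 3.43 in gcn2, against 3.12, 3.04 and 3.21 in WT (0.93 ± 0.22, adjusted p = 0.16 without and 0.046 with the block). In all 3, replicate 3 was the gcn2 array closest to WT. Both 254098_at and BHLH101 were chosen after their values were seen.

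The mock gradients gave values for the same probe sets. For 254098_at the non-polysomal signal was 9.71, 10.28 and 4.22 in gcn2, against 4.15, 4.23 and 3.90 in WT. In small polysomes (SP) its signal was 10.14, 10.58 and 4.31 in gcn2, against 4.18, 4.06 and 3.98 in WT. In large polysomes (LP) it was 10.05, 10.19 and 7.67 in gcn2, against 3.58, 4.43 and 4.30 in WT. The lowest gcn2 array was replicate 3 in each fraction, near WT in non-polysomal RNA (NP) and SP but well above WT in LP. After herbicide, total RNA had 3.75, 3.75 and 4.11 in gcn2, against 3.89, 3.92 and 4.18 in WT, so all gcn2 arrays lay near WT. For BHLH101 the NP signal was 9.13, 9.30 and 7.90 in gcn2, against 7.83, 7.83 and 7.55 in WT. What sets replicate 3 apart was not tested, and the labels do not say whether total RNA and gradients came from the same seedlings.

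For the 31 probe sets, the remaining arrays of the study gave the same comparison in other RNA. In the mock gradients, RNA had been pooled as non-polysomal (NP), small polysomal (SP) and large polysomal (LP). The 31 were chosen for their difference in total RNA, and the labels do not say whether the gradients came from the same seedlings. The shares below are therefore a description and not known to be an independent test. The sign in total RNA was kept in all 3 fractions for 30 of the 31, against 23.7% of all probe sets. Of the 16 higher in total RNA, 13 had every gcn2 array above every WT array in NP, 13 in SP and 13 in LP, against 4.54%, 2.56% and 5.44% of all probe sets in this order. Of the 15 lower, 9, 13 and 9 had every gcn2 array below, against 5.06%, 4.26% and 2.34%. Of the 16, 11 had every gcn2 array above every WT array in each fraction, against 0.163% of all probe sets, and of the 15 lower, 5 had every gcn2 array below, against 0.0528%. The exception in sign was AT3G10930 in NP RNA (−0.05).

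The WT LP arrays stood apart, with a median of 5.67 in replicate 1 (6.17 to 6.23 in the other mock LP arrays) and SDs of probe sets from their group mean of 0.370 to 0.600, against 0.193 to 0.273 in the gcn2 LP arrays. Without the LP arrays, 13 of the 16 and 9 of the 15 did not overlap in both NP and SP, against 0.523% and 0.62% of all probe sets.

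QQS had NP signals of 8.12, 8.15 and 9.17 in gcn2, against 5.41, 5.25 and 4.43 in WT, and LP signals of 6.54, 6.76 and 7.18 in gcn2, against 3.82, 3.69 and 3.12 in WT. Its difference was 3.45 in NP, 3.32 in SP and 3.28 in LP, close to that in total RNA. AT4G03156 had NP signals of 9.63, 9.64 and 9.62 in gcn2, against 2.84, 1.96 and 2.18 in WT. AT2G13430 had 5.45, 5.04 and 5.40 in NP of gcn2, against 8.23, 8.60 and 7.71 in NP of WT.

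The size was less even for other genes. AT2G13430 differed by −2.88 in NP, −1.69 in SP and −1.26 in LP, and AT2G04770 by −4.34, −2.73 and −2.80 in the same order. SWEET10 differed by 0.43, 0.49 and 1.50, and in NP its arrays overlapped, with 5.30, 5.13 and 6.36 in gcn2, against 5.05, 5.33 and 5.12 in WT. Whether these fractions differ from one another was not tested.

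**Figure D5:**
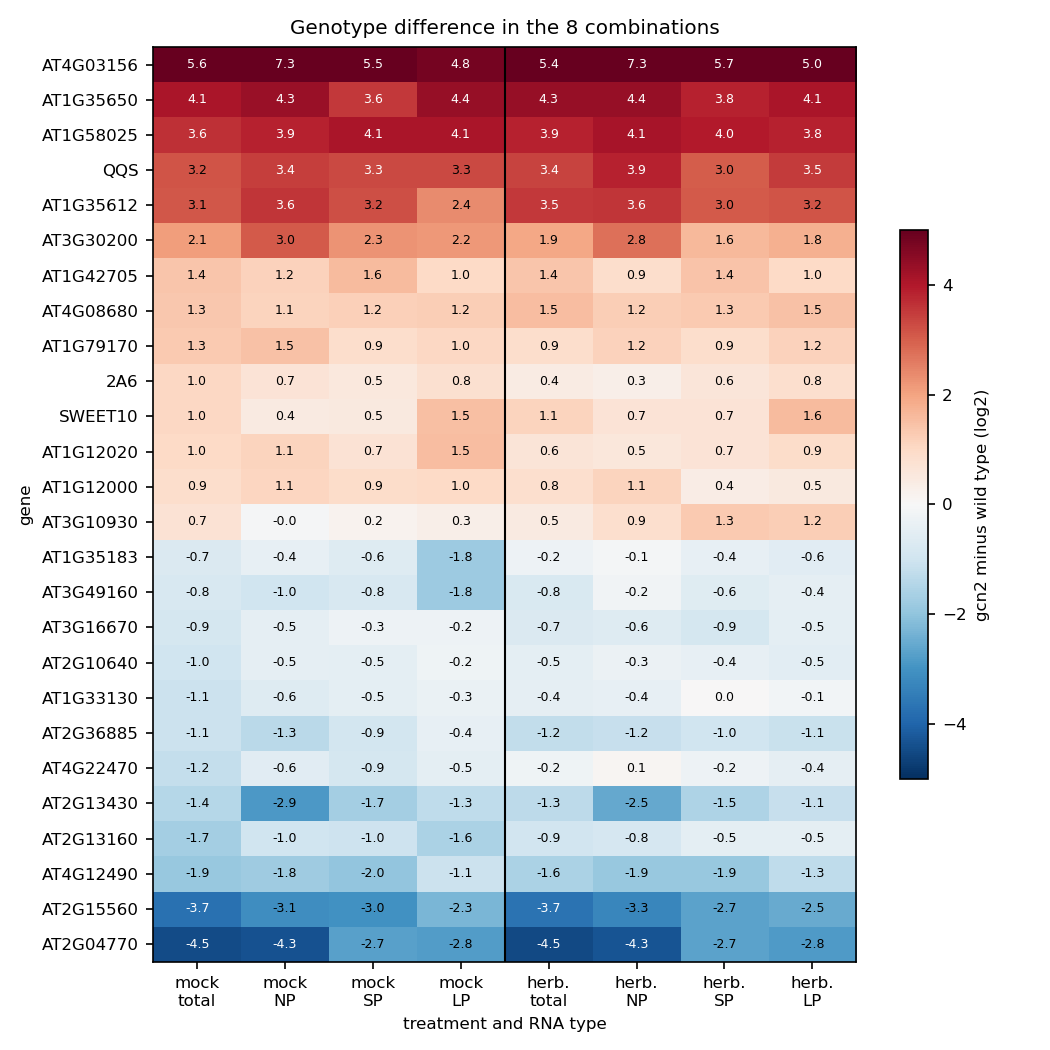
Difference between gcn2 and WT (log2, colour and figures in the cells) of the 26 named genes past the threshold in mock total RNA, in the 8 combinations of treatment (mock, herbicide) and RNA type (total, NP, SP, LP). QQS lies between 3.0 and 3.9 in every combination, and AT4G22470 runs from −1.2 in mock total RNA to 0.1 in herbicide NP RNA.

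In total RNA after herbicide, gcn2 against WT was also past the threshold for 24 of the 31, against 4.49% of all probe sets. Of these, 13 were higher and 11 lower, as in mock, against 3.07% and 1.42% of all probe sets. The herbicide differences came from other arrays, but each probe set had the same SE as in mock, from the shared fit. The 31 were chosen partly for a small SE, so this test is not independent of their choice. The 7 that did not pass there were 2A6 (0.40), AT3G10930 (0.46), AT1G35183 (−0.23), AT2G10640 (−0.49), AT1G33130 (−0.45), AT4G22470 (−0.22) and the unnamed 260101_at (−0.18). The change of the genotype difference with herbicide was tested as an interaction. It passed for 2 of the 31, AT4G22470 and 260101_at, against 1.53% of all probe sets, and for 2 with the block, against 4.62%. It contains the mock difference by which the 31 were chosen, so these shares are not independent of that choice. The 8 combinations include mock total RNA, by which the 31 were chosen. In all 8 the sign was the same for 27 of the 31, against 7.15% of all probe sets. The 4 others were 260101_at, AT3G10930, AT4G22470 and AT1G33130.

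Of the 65 named genes that passed only with the block, 23 kept their sign in all 8 combinations, against 7.15% of all probe sets. The 8 include mock total RNA, by which the 65 were chosen, so this share is not independent of that choice. After herbicide 5 passed, against 4.49%, and 6 had an interaction past the threshold, against 1.53%, both by the fit without the block. With the block, 20 had an interaction past the threshold, against 4.62%. The interaction contains the mock difference by which the 65 were chosen. That choice can raise both interaction shares, so they cannot be read as a result about these genes. AT5G44880 was among the 5, with a difference of 1.17 after herbicide. ICL, OCT1 and AT3G28270 had −0.61, −0.50 and 0.05 after herbicide.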

How the data were processed

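RNA was hybridised to Affymetrix ATH1 arrays. The authors' deposited values are log2 probe set signals, and RMA, affy and MAS5 are named in the submitters' processing notes, without versions. It is not stated if the 48 arrays were normalized in 1 run. After 64 control probe sets were left out, 22746 were tested. A gene was named for 13513 of them, several genes for 503, and 8730 stayed unnamed here. Names came from the platform annotation, updated through RefSeq (TAIR10.1) by gene ID for 13436 and locus tag for 48, and kept from the platform annotation for 29. RefSeq was also used for gene order and gene type.

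The 12 total RNA arrays (gcn2 and WT, mock and herbicide, 3 each) entered 1 linear model of group means in limma 3.58.1 (lmFit, eBayes; R 4.3.3), and the contrast gcn2 mock minus WT mock was tested with Benjamini-Hochberg adjustment over all probe sets at 0.05. The herbicide contrast and the interaction came from the same fit. Fractions were described by sign and overlap. A signal is called dim below the lower quartile of the arrays. Arrays carry no counts, so their number limits the precision. The steps were tested on simulated data.

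Replicates with the same number deviated together in 18 of 18 pairs of arrays from different groups (mean correlation of deviations 0.37, lowest 0.15), so the numbers pair the samples, as judged from the data, and a fit with the replicate number as a block is given beside the main count. Since no label tells if replicates were grown as separate cultures, the p-values measure the spread between these samples, which may be technical.

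Named genes were all those with 1 gene past the threshold, the 10 largest differences in each direction among those past it only with the block, list members past it or at the ends of their list, and the nearest measured neighbours. The arrays and gene lists were chosen with earlier results of these data known. Alternatives were the block, the 6 mock arrays alone, a filter on dim probe sets, another variance prior, 2 other scalings and leaving out each array. Scaling moved the median difference of all probe sets by less than 0.1. Tables and figures were made with Python 3.11.15.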

Additional observations from a re-analysis of the deposited data

Results flagged for a closer look

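The difference between gcn2 and WT changed with herbicide, by the interaction in limma, for 4 of the probe sets described above in the fit without the block. All had been chosen by their mock difference, which is part of the interaction, so the choice favours a large interaction. AT4G22470 had 6.72, 6.62 and 6.90 in gcn2, against 6.92, 6.72 and 7.26 in WT after herbicide, where the genotypes overlapped, and the interaction was 0.99 ± 0.21 (adjusted p = 0.025). ECS1 had 3.17, 3.02 and 3.44 in gcn2, against 3.95, 3.69 and 3.82 in WT after herbicide, below WT where it had been above in mock, with an interaction of −1.53 ± 0.31 (adjusted p = 0.015). AT2G43620 had 9.16, 8.88 and 8.27 in gcn2, against 8.35, 8.21 and 7.87 in WT after herbicide, and its interaction was 1.41 ± 0.32 (adjusted p = 0.031). The unnamed 260101_at had 3.95, 3.67 and 4.00 in gcn2, against 4.04, 4.09 and 4.03 in WT after herbicide, and its interaction was −1.11 (adjusted p = 0.015). After herbicide, gcn2 minus WT was −0.22, −0.61, 0.63 and −0.18 in this order (adjusted p = 0.53, 0.14, 0.14 and 0.63). With the replicate block, the interaction passed for 6 of the 20 genes named as past the threshold only with the block, against 2 without it. The 4 gained were AT3G28270 (adjusted p = 0.0047 with and 0.34 without the block), AT2G47020 (0.0041 and 0.072), AT1G57590 (0.0062 and 0.075) and AT2G43590 (0.048 and 0.22).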

How the results depend on the processing

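The count of 31 in mock total RNA became 163 with the replicate block and 51 with the 6 mock arrays alone and the block, a setting chosen after seeing the data. It was 26 without dim probe sets, 21 with the 6 mock arrays alone, 29 with a trended and robust variance prior, 31 with centred arrays, 29 with quantile normalization and 21 to 43 when each array was left out. Calls in gene lists numbered 3, and 5 with the block. After herbicide the count was 1022, 2561 with the block and 613 to 900 without each array in turn. The interaction count was 347, 1051 with the block and 247 to 390 without each array. Sign was kept in all 3 fractions for 30 of the 31, and for 29 without replicate 3. Of the 31 probe sets, 31 passed with the block, 26 without dim probe sets, 21 with the 6 mock arrays and 20 to 26 without each array, and 0 changed sign under any of these settings. With 3 arrays per genotype and a median SE of 0.15, differences of dim probe sets are uncertain in size, and small differences were not detectable.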
